A study of Mus musculus with 4 samples.

Results

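Transcripts of 10 genes of adenosine and purinergic signaling were examined in the ischemic hippocampus: the adenosine receptors Adora1, Adora2a and Adora2b, the ATP and ADP receptors P2rx4, P2rx7 and P2ry1, the nucleotide-degrading ecto-enzymes Entpd1, Entpd2 and Nt5e, and the adenosine-phosphorylating enzyme Adk. They were taken by symbol, and all 10 were found among the 22609 gene symbols of the RNA-Seq count tables. The data comprise 4 hippocampus libraries of ovariectomized female mice aged 3 to 5 months, 2 of FLOX+GCI and 2 of FBN-ARO-KO+GCI. All mice, FLOX controls included, had been ovariectomized a week earlier and underwent global cerebral ischemia (GCI) by 20 min of common carotid artery occlusion and 24 h of reperfusion, so the effect of ischemia itself is not measured by these libraries. FBN-ARO-KO mice lack the aromatase gene Cyp19a1 in forebrain excitatory neurons, where a CaMKIIα promoter drives Cre, and glia and vessels keep the gene. FLOX mice carry the floxed gene as controls. Whether the libraries of a genotype came from separate mice is not stated, and p-values then measure only the spread between these libraries, which may be technical.

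Nucleotides released by stressed or dying cells act on P2X channels and P2Y receptors. On the cell surface ATP is degraded stepwise, by ecto-nucleoside triphosphate diphosphohydrolases to ADP and AMP and by the 5′-nucleotidase Nt5e to adenosine, which acts on its own receptors before it is taken up and phosphorylated by adenosine kinase. In the ischemic hippocampus adenosine is known for dampening excitatory transmission through Adora1, while ATP is known for activating microglia through P2rx4 and P2rx7.

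None of the 10 genes passed the test for a difference between genotypes. The test, edgeR's quasi-likelihood test, covered the 14527 genes that passed a filter on low counts, all 10 included. Of the 10, 0 had an adjusted p under 0.05 (range 0.424 to 0.971), against 0.0138% of all genes tested. At an unadjusted p under 0.05 the count was also 0, against 16.5% of all genes, and with DESeq2 it was 0 against 12.7%. DESeq2 gave an adjusted p to only 2 of the 10 genes and called neither, against 5.10% of the genes to which it gave one. With the replicate number as a block 0 of the 10 were called at an adjusted p under 0.05, against 1.27% of all genes. Log2 fold changes of FBN-ARO-KO+GCI over FLOX+GCI ran from -0.52 (Adora2a) to 0.09 (P2rx7), 4 of them above 0 and 6 below, with a median of -0.05 beside -0.01 for all genes. The genotypes did not overlap for 3 of the 10 genes, where this held for 51.8% of all genes. FBN-ARO-KO+GCI was the higher group for Adora1 (25.9% of all genes) and the lower for Adora2a and P2rx4 (25.8% of all genes). Levels are given as CPM, gene counts scaled to a common library total with the TMM method, and, where genes are compared with each other, as CPM per kb of annotated exon.

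**Figure D1:**
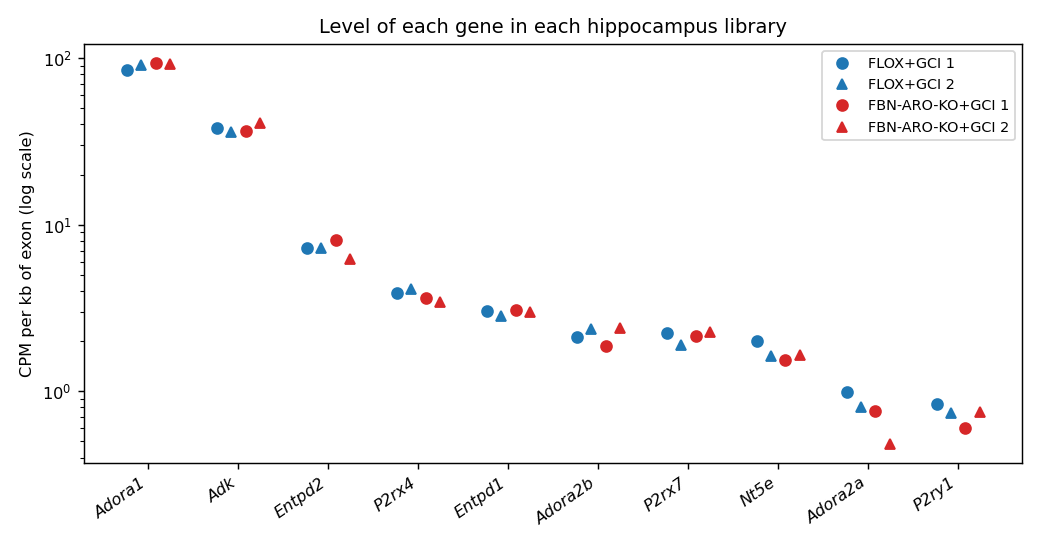
CPM per kb of exon (log axis) of the 10 genes in each library, ordered by mean level, in blue for FLOX+GCI and red for FBN-ARO-KO+GCI, with circles for replicate 1 and triangles for replicate 2. Adora1 lies between 85.1 and 93.4 and Adora2a between 0.485 and 0.992, and for most genes the genotypes intermingle.

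Expression per length was led by Adora1, with 85.1 to 93.4 CPM per kb over the 4 libraries, 2.39 times the level of Adk at 35.8 to 40.8. Entpd2 (6.19 to 8.13), P2rx4 (3.45 to 4.12) and Entpd1 (2.84 to 3.07) came next, each apart from its neighbors in every library. Adora2b (1.86 to 2.39) and P2rx7 (1.90 to 2.26) overlapped, as did P2rx7 and Nt5e (1.55 to 2.01). Adora2a (0.485 to 0.992) and P2ry1 (0.606 to 0.842) were lowest and overlapped each other. These levels depend on the exon length in the annotation used, 1701 bases for Adk and 5785 for Adora1.

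The libraries carried the markers of the labeled tissue. All 8 excitatory neuron markers, among them Slc17a7, Camk2a and Prox1, were detected in every library, with a summed level of 7821 to 8139 CPM. The library totals lay between 24333396 and 33076795 gene counts, so that 3 counts corresponded to 0.0905 to 0.122 CPM. Cyp19a1 had 1 to 4 counts per library, too few to check the deletion. In such bulk tissue fewer cells of a type and less RNA per cell cannot be told apart.

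Adora1 encodes the inhibitory adenosine receptor that reduces transmitter release and neuronal firing. It lies on chromosome 1 of mm9 from 136095800 to 136132008 on the minus strand. It had 492.1 and 524.5 CPM in FLOX+GCI and 540.2 and 530.0 CPM in FBN-ARO-KO+GCI. Both FBN-ARO-KO+GCI libraries were the higher ones, yet the gap between the groups, 524.5 to 530.0 CPM, was smaller than the difference between the FLOX+GCI libraries. Mean levels were 508.3 ± 22.9 and 535.1 ± 7.20 CPM (SD, n = 2 each). The log2 fold change was 0.07 (SE 0.07, 95% interval -0.09 to 0.24, edgeR quasi-likelihood adjusted p = 0.601). After each library was corrected for its trend over GC content and transcript length the value was 0.16, with an unadjusted p under 0.05 (11.4% of all genes, 7.90% in this direction) and an adjusted p of 0.415 from edgeR. Adora1 had 12330 to 17906 counts per library. As a ratio of the genotypes the 95% interval runs from 0.940 to 1.18. It holds for the fit without the correction and reflects only the spread between these libraries.

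Adora2a, the stimulatory receptor best known from striatal neurons and also present on vessels and immune cells, lies on chromosome 10 from 74779688 to 74797533. FLOX+GCI libraries held 63 and 50 counts and FBN-ARO-KO+GCI libraries 64 and 36, which is 2.51 and 2.03 CPM against 1.93 and 1.23 CPM. FBN-ARO-KO+GCI replicate 2 stood lowest and FLOX+GCI replicate 1 highest, and the gap between the genotypes, 2.03 to 1.93 CPM, was smaller than the spread within either. The log2 fold change was -0.52 (SE 0.32, 95% interval -1.26 to 0.22, edgeR quasi-likelihood adjusted p = 0.424). Without FBN-ARO-KO+GCI replicate 2 it was -0.23, without FLOX+GCI replicate 1 it was -0.35, without FBN-ARO-KO+GCI replicate 1 it was -0.89, and after the GC and length correction it was -0.31. The counting intervals (95% exact Poisson) were 37.1 to 65.9 and 49.3 to 81.7 for 50 and 64 counts, the libraries nearest in CPM across genotypes. For 63 and 36 counts, the libraries farthest apart in CPM, they were 48.4 to 80.6 and 25.2 to 49.8. All are in raw counts, not scaled for depth, and cover counting error only.

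Levels of vessel markers moved with Adora2a in part. The summed level of 8 endothelial markers, among them Cldn5 and Flt1, was 287.3 and 208.4 CPM in FLOX+GCI and 239.9 and 172.8 CPM in FBN-ARO-KO+GCI, and that of 7 mural cell markers, among them Acta2 and Pdgfrb, 194.6 and 118.1 against 152.3 and 80.6 CPM. Like Adora2a, both sums were highest in FLOX+GCI replicate 1 and lowest in FBN-ARO-KO+GCI replicate 2. All of these markers were detected in every library, but the genotypes overlapped in both sums. Of the endothelial markers 0 had a log2 fold change above 0 and 8 below, and of the mural markers 1 above and 6 below. Of all genes tested 7069 lay above 0 and 7458 below. By edgeR's quasi-likelihood test 0 of these markers had an adjusted p under 0.05. The other 8 striatal neuron markers summed to 205.2 and 222.4 CPM in FLOX+GCI and 205.8 and 209.9 CPM in FBN-ARO-KO+GCI, with none at 0. Of these markers 2 had a log2 fold change above 0 and 6 below. The 8 blood leukocyte markers summed to 14.1 and 11.4 CPM in FLOX+GCI and 9.99 and 9.83 CPM in FBN-ARO-KO+GCI. The libraries stood in the same order as for Adora2a, and the genotypes did not overlap, which held for 51.8% of all genes. Only 3 of these leukocyte markers had 3 or more counts in every library, and 4 were at 0 in some. Of those tested, 1 had a log2 fold change above 0 and 1 below. The part of these cells in the Adora2a values was not tested.

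Adora2b, the low-affinity stimulatory receptor that responds to high adenosine, lies on chromosome 11 from 62062486 to 62079955. It had 3.91 and 4.38 CPM in FLOX+GCI and 3.44 and 4.40 CPM in FBN-ARO-KO+GCI. The FBN-ARO-KO+GCI libraries enclosed the FLOX+GCI libraries, and the log2 fold change was -0.08 (95% interval -0.58 to 0.42, edgeR quasi-likelihood adjusted p = 0.866). Among the 3 adenosine receptors Adora1 made up 96.5% and 96.6% of the level per kb in FLOX+GCI, against 97.3% and 97.0% in FBN-ARO-KO+GCI. Per kb, Adora1 exceeded Adora2b by 38.2 to 50.1 times and Adora2a by 85.7 to 188.9 times over the 4 libraries, the widest ratio being that of FBN-ARO-KO+GCI replicate 2.

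The receptors P2rx4 and P2rx7 are ATP-gated cation channels of microglia, P2rx7 opening only at high ATP, and their genes are neighbors on chromosome 5 of mm9, 16.2 kb apart. P2rx4, from 123157593 to 123179747, had 321 and 336 counts in the FLOX+GCI libraries and, at their greater depth, 399 and 334 counts in the FBN-ARO-KO+GCI libraries. Scaled by library these were 13.2 ± 0.580 and 11.7 ± 0.449 CPM (SD, n = 2 each). Both FBN-ARO-KO+GCI libraries were below both FLOX+GCI libraries in CPM, at a log2 fold change of -0.17 (SE 0.13, 95% interval -0.47 to 0.12, edgeR quasi-likelihood adjusted p = 0.492). P2rx7, from 123093920 to 123141441, had 12.3 and 10.5 CPM in FLOX+GCI and 11.9 and 12.5 CPM in FBN-ARO-KO+GCI. Here the genotypes overlapped, with a log2 fold change of 0.09 (95% interval -0.23 to 0.42, edgeR quasi-likelihood adjusted p = 0.751). The neighboring genes therefore had opposite signs, but neither difference passed the test. Per kb, P2rx4 was 1.73 and 2.17 times P2rx7 in FLOX+GCI and 1.69 and 1.53 times in FBN-ARO-KO+GCI. The 11 microglia markers, all detected in every library, summed to 563.6 and 560.0 CPM in FLOX+GCI and 547.5 and 594.2 CPM in FBN-ARO-KO+GCI. The genotypes overlapped in this sum too.

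P2ry1, the ADP receptor coupled to calcium release in astrocytes and neurons, lies on chromosome 3 from 60806717 to 60812901. With 71 to 85 counts per library it had 3.27 and 2.88 CPM in FLOX+GCI and 2.35 and 2.90 CPM in FBN-ARO-KO+GCI. FBN-ARO-KO+GCI replicate 1 was lowest while replicate 2 lay among the FLOX+GCI libraries, and the log2 fold change was -0.23 (95% interval -0.78 to 0.32, edgeR quasi-likelihood adjusted p = 0.631).

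The genotypes differ in a source of estrogen, so the promoters were read for the letters that estrogen receptors bind. RefSeq promoter windows (GRCm38.p6, the 250 bases before a start) were given for 9 of the 10 genes in 13 windows, each of which matched mm9 exactly once. The full palindromic element, GGTCA and TGACC with 3 bases between them, was in 0 of the 13 windows and in 0.0639% of all 32851 RefSeq windows. Its core GGTCA or the reverse complement TGACC, searched on both strands, was in 5 of the 13, belonging to P2rx4, P2rx7, P2ry1 and Adk, and in 35.2% of all windows. Such a match of letters is a description and no binding site. P2rx7 had 2 windows, both with the core, and Adora1, the most abundant of the 10 genes, had 2 windows, both without it. The window of P2rx4 and the most upstream window of P2rx7 and of Adora1 are shown 5′ to 3′ on the strand of the gene with mm9 positions, the core in capitals.
P2rx4, chr5:123157303-123157552, plus strand: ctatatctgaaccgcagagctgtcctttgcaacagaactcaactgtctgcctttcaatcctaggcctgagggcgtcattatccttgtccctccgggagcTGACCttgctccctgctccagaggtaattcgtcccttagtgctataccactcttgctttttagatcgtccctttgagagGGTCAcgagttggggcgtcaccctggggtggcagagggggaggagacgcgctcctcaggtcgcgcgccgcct
P2rx7, chr5:123093686-123093935, plus strand: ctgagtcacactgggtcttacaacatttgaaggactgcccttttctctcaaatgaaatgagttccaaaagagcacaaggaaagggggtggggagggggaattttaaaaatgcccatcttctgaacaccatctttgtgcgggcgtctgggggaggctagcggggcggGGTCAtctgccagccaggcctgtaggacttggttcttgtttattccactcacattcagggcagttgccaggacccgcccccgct
Adora1, chr1:136132035-136132284, minus strand: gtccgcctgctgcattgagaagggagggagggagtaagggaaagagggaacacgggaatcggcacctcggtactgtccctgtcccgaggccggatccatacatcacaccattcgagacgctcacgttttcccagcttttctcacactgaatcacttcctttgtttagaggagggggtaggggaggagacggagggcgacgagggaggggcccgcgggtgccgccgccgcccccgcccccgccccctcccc

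Of the surface enzymes, Entpd1 (CD39) carries ATP and ADP through to AMP and is best known from microglia and endothelium, while Entpd2 prefers ATP and is known from astrocytes. Entpd1, on chromosome 19 from 40686856 to 40816092, had 16.9 and 15.9 CPM in FLOX+GCI and 17.1 and 16.7 CPM in FBN-ARO-KO+GCI. All 4 values lay close together, and the log2 fold change was 0.04 (95% interval -0.22 to 0.31, edgeR quasi-likelihood adjusted p = 0.865). Entpd2, on chromosome 2 from 25251394 to 25256843, had 15.4 CPM in each FLOX+GCI library and 17.3 and 13.2 CPM in FBN-ARO-KO+GCI. The FBN-ARO-KO+GCI libraries thus lay on either side of FLOX+GCI, at a log2 fold change of -0.01 (95% interval -0.37 to 0.35, edgeR quasi-likelihood adjusted p = 0.971), which became 0.19 after the GC and length correction. Per kb, Entpd2 exceeded Entpd1 in every library, by 2.07 to 2.65 times. In the annotation used, 612 bases of Entpd2 exons are shared with Npdc1 on the same strand. Npdc1 had 6227 to 8091 counts against 380 to 574 for Entpd2, so the level of Entpd2 and its ratio to Entpd1 are uncertain to the extent that reads there were lost or shared. Adora1 shares 661 exon bases with Mybph on the opposite strand, which had 3 to 6 counts. The strand setting is not known, so the level of Adora1 and its ratios are likewise uncertain to the extent that reads there were lost.

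Nt5e (CD73), which forms adenosine from AMP, lies on chromosome 9 from 88222447 to 88266927. It had 7.18 and 5.80 CPM in FLOX+GCI and 5.55 and 5.94 CPM in FBN-ARO-KO+GCI. FLOX+GCI replicate 1 stood above the other 3 libraries, which lay together, and it also had the highest endothelial and mural marker sums. FBN-ARO-KO+GCI replicate 1, the next highest in both sums (239.9 and 152.3 CPM), had the lowest Nt5e. The log2 fold change was -0.18 (SE 0.18, 95% interval -0.60 to 0.25, edgeR quasi-likelihood adjusted p = 0.632), and -0.01 without FLOX+GCI replicate 1. The part of vessel cells in the Nt5e values was not tested.

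Adk, the astrocytic kinase that removes adenosine by turning it into AMP, lies on chromosome 14 from 21871855 to 22267769. It had 64.3 and 61.0 CPM in FLOX+GCI and 61.8 and 69.4 CPM in FBN-ARO-KO+GCI. FBN-ARO-KO+GCI replicate 2 was highest and replicate 1 lay between the FLOX+GCI libraries. The log2 fold change was 0.07 (SE 0.09, 95% interval -0.14 to 0.28, edgeR quasi-likelihood adjusted p = 0.723), and -0.01 after the GC and length correction. The 8 astrocyte markers summed to 5766 and 5888 CPM in FLOX+GCI and 6010 and 6611 CPM in FBN-ARO-KO+GCI, highest in the library in which Adk was highest. FLOX+GCI replicate 1, with the lowest sum, had the next highest Adk. Slc1a2 alone made up 50.7% to 57.5% of this sum, and 6 of the 8 markers had a log2 fold change above 0. Aldh1l1 (-0.30, edgeR quasi-likelihood adjusted p = 0.238) and Gfap (-0.29, adjusted p = 0.655) went the other way. The part of astrocyte content in the Adk values was not tested. Per kb, Adk exceeded Nt5e by 18.8 and 22.1 times in FLOX+GCI and by 23.4 and 24.6 times in FBN-ARO-KO+GCI.

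**Figure D2:**
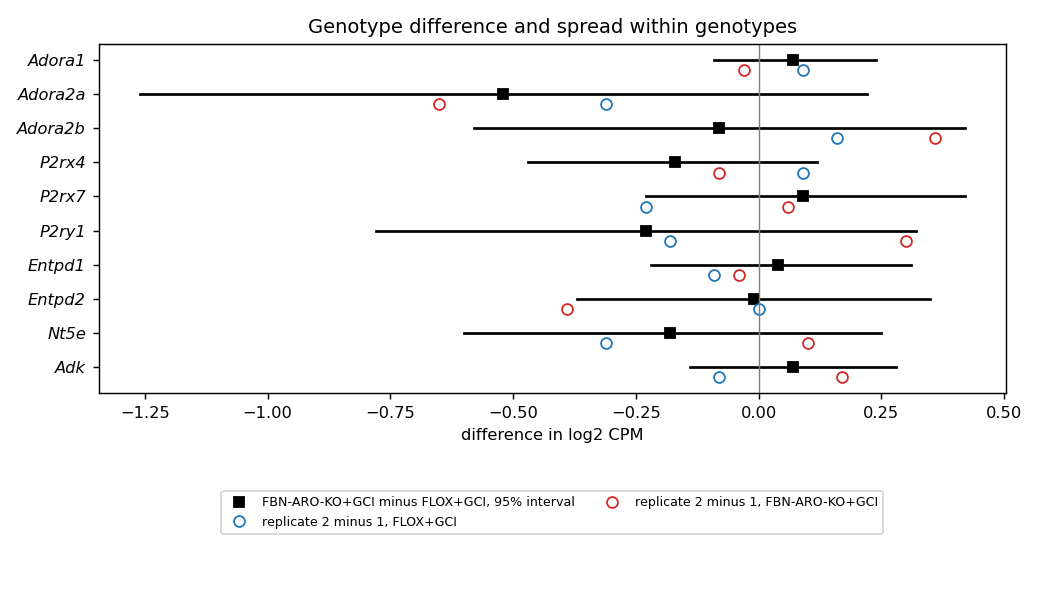
Difference in log2 CPM between genotypes (black squares, lines for 95% intervals from edgeR) and between replicates 2 and 1 of each genotype (open circles, blue FLOX+GCI, red FBN-ARO-KO+GCI) for the 10 genes. Every interval includes 0, and the widest, of Adora2a, runs from -1.26 to 0.22.

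**Figure D3:**
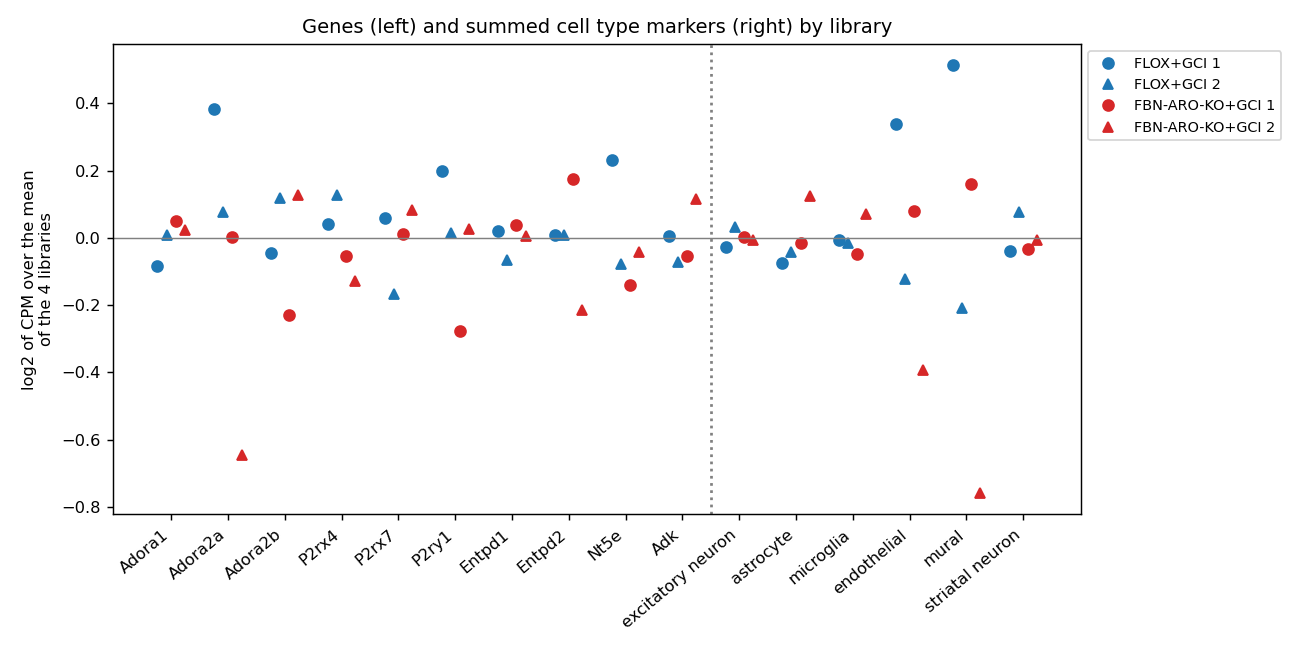
Log2 of the CPM of each gene (left) and of the summed markers of 6 cell types (right) over the mean of the 4 libraries (blue FLOX+GCI, red FBN-ARO-KO+GCI, circles replicate 1, triangles replicate 2). Mural and endothelial sums are highest in FLOX+GCI replicate 1 and lowest in FBN-ARO-KO+GCI replicate 2, as is Adora2a.

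The other genes of the pathway, a list of 55 further receptors, nucleotidases, metabolic enzymes, transporters and ATP release channels, also held no gene with an adjusted p under 0.05 by edgeR's quasi-likelihood test. Of the 55, 43 passed the filter on low counts, 20 with a log2 fold change above 0 and 23 below, with a median of -0.03. At an unadjusted p under 0.05 there were 9, of which 1 had its higher level in FBN-ARO-KO+GCI and 8 in FLOX+GCI, or 20.9% of the 43 beside 16.5% of all genes. The 8 lower genes are 18.6% of the 43, where 7.82% of all genes were lower at this p and 8.72% higher. After the GC and length correction 6 of the 43 had such a p, against 11.4% of all genes. Of these 6, 4 were lower (9.30% of the 43, against 3.51% of all genes) and 2 higher (4.65%, against 7.90%).

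Of the other receptors, 10 of 13 passed the filter. An unadjusted p under 0.05 was found for 1 of the 10, against 16.5% of all genes. This was P2ry2, an ATP and UTP receptor. The FLOX+GCI libraries held 27 and 34 counts and those of FBN-ARO-KO+GCI 24 and 19, for a log2 fold change of -0.83 (edgeR quasi-likelihood adjusted p = 0.293). This gene was chosen after its values were seen. Adora3, the remaining adenosine receptor, had 1.12 and 1.34 CPM in FLOX+GCI and 1.42 and 1.16 CPM in FBN-ARO-KO+GCI. P2ry12, the ADP receptor of microglial processes, had 37.4 and 22.4 CPM in FLOX+GCI and 27.2 and 48.4 CPM in FBN-ARO-KO+GCI, so that each genotype held a high and a low library. Its log2 fold change was 0.33 (SE 0.30, edgeR quasi-likelihood adjusted p = 0.588).

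Among the other nucleotidases, 9 of 11 passed the filter and 4 had an unadjusted p under 0.05, all lower in FBN-ARO-KO+GCI, as were 7.82% of all genes. After the GC and length correction there were 3 lower (33.3% of the 9, against 3.51% of all genes), Entpd4, Enpp1 and Acpp, without Alpl. There was 1 higher (11.1% of the 9, against 7.90% of all genes). The higher one was Entpd6, a Golgi and secreted nucleotidase chosen here after its values were seen, whose log2 fold change was 0.16 with the correction and 0.02 without it. Entpd4, a nucleotidase of Golgi and lysosomal membranes rather than of the cell surface, had 185.1 and 195.2 CPM in FLOX+GCI and 128.2 and 131.1 CPM in FBN-ARO-KO+GCI. The genotypes were well apart, at 190.1 ± 7.16 and 129.6 ± 2.08 CPM (SD, n = 2 each). Its log2 fold change was -0.55 (SE 0.07, 95% interval -0.72 to -0.39, edgeR quasi-likelihood adjusted p = 0.173). The adjusted p was 4.42e-06 with DESeq2, which called 5.10% of its genes, and 9.71e-07 with edgeR's likelihood ratio test, which called 2.02%. With any library left out the log2 fold change stayed between -0.59 and -0.52, at an edgeR adjusted p of 0.0130 without FLOX+GCI replicate 1, 0.0298 without FLOX+GCI replicate 2, 0.163 without FBN-ARO-KO+GCI replicate 1 and 0.552 without FBN-ARO-KO+GCI replicate 2. It was -0.51 after the GC and length correction. RefSeq lists a similar gene, Entpd4b, on the same chromosome, which is not among the symbols counted. Reads of Entpd4 may have been discarded or aligned there without being counted, and the value of Entpd4 is uncertain in this respect.

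Alpl, the tissue-nonspecific alkaline phosphatase, had 12.2 and 7.83 CPM in FLOX+GCI and 6.64 and 5.97 CPM in FBN-ARO-KO+GCI. FLOX+GCI replicate 1, with the highest endothelial and mural sums, was the highest library, and the log2 fold change of -0.67 became -0.31 without it (edgeR quasi-likelihood adjusted p = 0.248 and 0.511), while without FLOX+GCI replicate 2 it was -0.95 (edgeR adjusted p of 0.0298). FBN-ARO-KO+GCI replicate 1, the next highest in both sums, had less Alpl than FLOX+GCI replicate 2. The part of vessel cells in these Alpl values was not tested. Enpp1, which splits ATP to AMP and pyrophosphate, had 3.87 and 3.65 CPM in FLOX+GCI and 2.56 and 1.78 CPM in FBN-ARO-KO+GCI, for a log2 fold change of -0.79 (edgeR adjusted p of 0.248). Acpp, an AMP-hydrolyzing acid phosphatase, had counts of 11 and 27 in the FLOX+GCI libraries and of 10 and 7 in the others, a log2 fold change of -1.48 that was -0.69 without FLOX+GCI replicate 2 (edgeR quasi-likelihood adjusted p = 0.274 and 0.777). Entpd3, a relative of the surface enzymes Entpd1 and Entpd2, had 11.8 and 10.5 CPM in FLOX+GCI and 11.0 and 10.2 CPM in FBN-ARO-KO+GCI.

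Inside the cell, 15 of 17 genes of adenosine metabolism passed the filter, and 4 had an unadjusted p under 0.05, 1 of them higher. Of all genes 16.5% had such a p, 8.72% higher and 7.82% lower. After the GC and length correction 1 of the 15 was higher and 1 lower at this p, against 7.90% and 3.51% of all genes. Ahcyl2, a relative of the adenosine-forming enzyme Ahcy, had 272.5 and 301.3 CPM in FLOX+GCI and 337.9 and 336.6 CPM in FBN-ARO-KO+GCI, for a log2 fold change of 0.23 (edgeR quasi-likelihood adjusted p = 0.248). Ak1, an adenylate kinase, had 122.5 and 130.8 against 107.3 and 103.5 CPM, a log2 fold change of -0.26. The nucleotidase Nt5c had 32.0 ± 2.08 against 25.1 ± 0.251 CPM (SD, n = 2 each), for a log2 fold change of -0.35 (edgeR adjusted p of 0.238 for both genes). Their log2 fold changes were -0.14 and -0.09 after the GC and length correction. Ampd3, an AMP deaminase, had 27.6 and 36.1 against 24.4 and 25.2 CPM, a log2 fold change of -0.36 that was -0.16 without FLOX+GCI replicate 2.

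The adenosine deaminase Ada, which removes adenosine alongside Adk, had only 10 to 30 counts per library, and its log2 fold change of 0.27 had an SE of 0.52. Ahcy itself had 4.11 and 4.26 CPM in FLOX+GCI and 3.95 and 3.45 CPM in FBN-ARO-KO+GCI. Of the nucleoside transporters 4 of 7 and of the ATP release genes 5 of 7 passed the filter. An unadjusted p under 0.05 was found for 0 of these 9, against 16.5% of all genes. Slc29a1, the main equilibrative carrier of adenosine, had 21.5 and 18.1 CPM in FLOX+GCI and 20.7 and 16.5 CPM in FBN-ARO-KO+GCI, at a log2 fold change of -0.08 (SE 0.15).

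**Figure D4:**
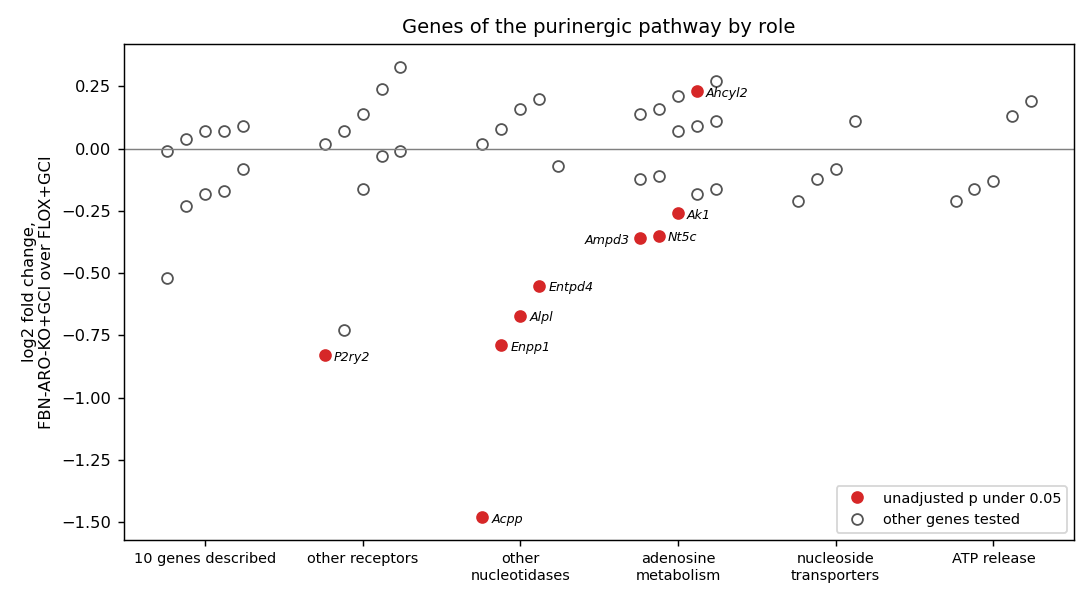
Log2 fold change of FBN-ARO-KO+GCI over FLOX+GCI for the 10 genes and the 43 other pathway genes tested, by role, with filled red points for an unadjusted p under 0.05. The 10 genes lie between -0.52 and 0.09 with no filled point, and Entpd4, at -0.55, is among the 4 filled nucleotidases.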

How the data were processed

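RNA-Seq of 4 hippocampus libraries was used. Single-end reads of 50 nt had been aligned by the authors to mm9 (TopHat2 2.0.8b in the submitters' processing notes), and the deposited values are raw, unnormalized HTSeq counts for each symbol. The strand setting, HTSeq version and annotation release are not given in the sources used here, so overlapping genes may share or lose reads. Counters of unassigned reads were left out. Of the reads assigned or assignable at a unique position, 12.3% to 13.7% fell in no gene.

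The genotype test was edgeR 4.0.16's quasi-likelihood F test (R 4.3.3) with TMM, filterByExpr (minimum count 10) and Benjamini-Hochberg adjustment over all genes. SEs were derived from the F statistic. Permuting 2 against 2 libraries cannot give a two-sided p under 0.333. Exon lengths, positions and GC content (95.6% of genes tested) came from GENCODE M1 on mm9. The genes and lists were chosen with earlier results of these data known. All 10 genes are named, and of the 55 others the 8 with the smallest unadjusted p under 0.05 and no overlap of groups, plus Adora3, P2ry12, Entpd3, Ada, Slc29a1 and Ahcy. P2ry2 and Entpd6 are named outside this rule.

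Alternatives were DESeq2 1.42.0, its size factors, library totals, filters of 1 count and of a mean of 50 counts, edgeR's likelihood ratio test, a block for the replicate number, a spline correction for GC content and length (5 degrees of freedom), alone and with the block, and each library left out. Libraries of a genotype differed by more than counting noise (chi-square per degree of freedom 10.5 and 12.3) and were counted as 2 samples, which does not tell separate mice from technical repeats.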

Additional observations from a re-analysis of the deposited data

How the results depend on the processing

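The count of 0 of the 10 genes with an adjusted p under 0.05 held under every alternative run, although DESeq2 gave an adjusted p to only 2 of them. Of all genes, 2 were called with edgeR's quasi-likelihood test, 292 with DESeq2, 294 with the likelihood ratio test, 5 when any gene with 1 count or more entered, 184 with the replicate number as a block, and with a library left out from 0 (either FBN-ARO-KO+GCI library) to 193 (FLOX+GCI replicate 1), with 127 without FLOX+GCI replicate 2. In those fits the lone library of a genotype is assumed to vary like the others. Of the pathway list 0 genes were called, 1 with DESeq2, 1 with the likelihood ratio test and 1 with the replicate block, Entpd4 in each case (adjusted p = 0.00858 with the block), and from 0 to 2 with a library left out, the 2 being Entpd4 and Alpl without FLOX+GCI replicate 2. Libraries that share a number deviated from the means of their genotypes with a correlation of 0.129 over all genes tested. The labels tie the numbers to no shared batch, so they were not taken to pair the libraries. Signs turned for genes whose log2 fold change was near 0. After the GC and length correction it was -0.06 for Entpd1, 0.19 for Entpd2 and -0.01 for Adk, and the same 3 values came with the replicate block added. Signs held for P2ry1 (-0.33 with the correction, -0.23 without it), Nt5e (-0.25 and -0.18) and P2rx4 (-0.10 and -0.17). They also held for Adora2b (-0.03 and -0.08) and P2rx7 (0.08 and 0.09). The fold change between genotypes followed GC content across 13890 genes (Spearman's rho -0.55). With a library left out, the log2 fold change ran from -0.02 to 0.22 for P2rx7, from -0.00 to 0.09 for Entpd1, from -0.27 to 0.08 for Adora2b, from -0.23 to 0.17 for Entpd2 and from -0.02 to 0.15 for Adk. The cause of these turns was not tested. Adora2a and P2ry1 had the lowest counts of the 10 genes, 36 to 85 per library, and the widest 95% intervals.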
